A study of Mus musculus with 12 samples.

Results

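The genes described here are 10 genes of the mouse distal convoluted tubule: Pvalb, Slc12a3, Trpm6, Egf, Calb1, Trpv5, Cnnm2, Wnk1, Wnk4 and Klhl3. They were found by NCBI Gene number among the 27179 genes of a whole-kidney RNA sequencing table, and all 10 passed the filter on low values that left 14972 genes for testing. Pvalb was chosen by its TPM in cisplatin-treated mice, where it lay much lower in FAN1KO than in wild-type kidneys, so its values in every comparison that shares a library with that one are given without a test. The other 9 were listed for their place in the same tubule segment, but that list too was made with earlier results of these data known.

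The study asked how kidneys that lack the DNA repair nuclease FAN1 in proximal tubule cells respond to repeated cisplatin, a platinum drug that crosslinks DNA. There were 4 groups of 3 mice, each mouse giving 1 library: wild-type and FAN1KO mice, each on saline or on cisplatin. FAN1KO mice carry γGT1-Cre;Fan1-/-, in which Cre made from the Ggt1 promoter deletes Fan1 in the proximal tubule, a nephron segment upstream of the distal convoluted tubule. Cisplatin was injected into the peritoneum once a week for 5 weeks at 2 mg/kg. Controls received saline. All mice were given as 8 to 12 weeks old, which the study describes as the age at injection. The labels give the strain background of every mouse as mixed, while the study describes repeated backcrossing of its lines to a single strain.

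The distal convoluted tubule is the short nephron segment after the thick ascending limb. It takes up sodium chloride through the thiazide-sensitive cotransporter NCC, encoded by Slc12a3, and it sets how much magnesium and calcium leaves in the urine. Magnesium enters through the TRPM6 channel, which EGF made in the same cells stimulates, and CNNM2 acts at the basolateral side. Calcium enters through TRPV5 and is carried by the buffer calbindin, encoded by Calb1, in the later part of the segment and the connecting tubule. Parvalbumin, encoded by Pvalb, is a calcium buffer of the early part. The kinases WNK1 and WNK4 switch NCC on through SPAK, and KLHL3 hands WNK kinases to a cullin ubiquitin ligase for degradation.

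Values are TPM, a transcript share that is scaled to gene length and sums to the same total in every library. Library depth, recovered from the steps of the TPM values, was 37202169 to 82947648 reads. Fan1, the targeted gene, had TPM of 3.80, 3.35 and 1.98 in saline-treated wild-type kidneys and 1.17, 1.54 and 2.28 in saline-treated FAN1KO kidneys, then 2.33, 3.57 and 3.32 in cisplatin-treated wild-type and 2.72, 3.51 and 1.55 in cisplatin-treated FAN1KO kidneys. These ranges overlap in both genotype comparisons, and the whole-gene value in whole kidney therefore did not check the genotype labels. Each group held 1 library with RNA of Y-linked genes and 2 without, and the 4 libraries with it stood apart from the others in the distal genes too, as described below. Defining markers of the proximal tubule, thick ascending limb, principal, intercalated and podocyte lists were detected at a TPM of 1 or more in every group, and the labelled tissue is kidney.

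In saline-treated wild-type kidneys the 4 most abundant of the 10 transcripts were Calb1, Egf, Slc12a3 and Pvalb, at mean TPM of 537, 434, 368 and 330. Neighbours in that order overlapped between mice. Wnk4 followed at 130, below Pvalb without overlap, then Wnk1 at 65.9, which overlapped Wnk4. Cnnm2 came next at 24.2, Klhl3 at 13.5, Trpv5 at 10.5 and Trpm6 at 8.86, where Cnnm2 and Klhl3 did not overlap, while Trpv5 overlapped both Klhl3 and Trpm6. In cisplatin-treated FAN1KO kidneys the order was Slc12a3 at 436, Calb1 at 154, Wnk4 at 143, Egf at 79.3, Wnk1 at 51.3, Cnnm2 at 20.3, Trpv5 at 19.2, Pvalb at 11.4, Klhl3 at 7.09 and Trpm6 at 5.51. Pvalb thus stood in the fourth place in saline-treated wild-type kidneys and in the eighth in cisplatin-treated FAN1KO kidneys, where its values overlapped those of Trpv5, Klhl3 and Trpm6.

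Pvalb and Egf were the members furthest below their other groups in cisplatin-treated FAN1KO kidneys, and Slc12a3 was not lower, so the bases just before these 3 genes are shown. They are from RefSeq on GRCm38.p6, the assembly that mm10 names, and 9 of the 10 genes had a promoter in the table used. Capitals mark the match to the AP-2 motif GCCNNNGGC. Pvalb lies at chr15:78191112-78206400, Egf at chr3:129677574-129755322 and Slc12a3 at chr8:94329109-94366222.
Pvalb, chr15:78206401-78206650, minus strand: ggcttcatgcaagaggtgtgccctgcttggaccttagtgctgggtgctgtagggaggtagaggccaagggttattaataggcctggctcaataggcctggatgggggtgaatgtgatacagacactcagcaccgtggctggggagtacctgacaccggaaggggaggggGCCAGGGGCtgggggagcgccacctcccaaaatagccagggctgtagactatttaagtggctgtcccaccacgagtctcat
Egf, chr3:129755323-129755572, minus strand: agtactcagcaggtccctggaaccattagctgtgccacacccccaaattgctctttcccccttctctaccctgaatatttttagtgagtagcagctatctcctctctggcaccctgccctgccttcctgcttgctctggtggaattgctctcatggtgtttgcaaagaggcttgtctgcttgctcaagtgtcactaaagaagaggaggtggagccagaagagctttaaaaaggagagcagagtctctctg
Slc12a3, chr8:94328958-94329108, plus strand: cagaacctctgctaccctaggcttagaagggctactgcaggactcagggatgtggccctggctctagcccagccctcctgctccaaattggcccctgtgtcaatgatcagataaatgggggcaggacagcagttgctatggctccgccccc
Motifs were searched on both strands. The TATA box TATAAA and the estrogen-related receptor motif TCAAGGTCA had no match in any of the 3 stretches, and 12.4% and 0.387% of all 32851 promoters held them in the 250 bases before the start. The Slc12a3 stretch is shorter, at 151 bases, and in a window of that length 7.34% and 0.259% of promoters held them. The AP-2 motif was found 1 time before Pvalb and is held by 13.7% of promoters. A match is a description of letters and not of a bound site.

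Pvalb had TPM of 369, 411 and 211 in saline-treated wild-type kidneys, 59.1, 198 and 380 in saline-treated FAN1KO kidneys, and 187, 303 and 358 in cisplatin-treated wild-type kidneys. In cisplatin-treated FAN1KO kidneys it was 4.55, 12.9 and 16.6, with 86 reads in the library with the fewest. All 3 cisplatin-treated FAN1KO kidneys lay below each of the other 9, while the other 3 groups overlapped one another and saline-treated FAN1KO kidneys had the widest spread. Under cisplatin the mean fell from 282 ± 87.1 (SD, n = 3) in wild-type to 11.4 ± 6.18 (SD, n = 3) in FAN1KO kidneys, 24.9-fold lower, with a difference of -4.63 (SE 0.63) in log2(TPM + 1). Pvalb ranked at 5 among 14972 genes by size of fall. That rank is what chose it, and no test is given. In cisplatin-treated FAN1KO kidneys its mean was 18.7-fold below saline-treated FAN1KO kidneys, a log2 difference of -3.90 (SE 0.63), and the cisplatin effect in FAN1KO minus that in wild-type kidneys was -3.68 (SE 0.89) in log2, again with no test. In wild-type kidneys cisplatin went with a log2 difference of -0.22 in Pvalb, given without a test.

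Under saline, a comparison that did not choose Pvalb, the FAN1KO mean was 212 ± 161 (SD, n = 3) against 330 ± 106 (SD, n = 3) in wild-type. The log2 difference was -0.94 (SE 0.63, limma with Benjamini-Hochberg adjustment over all tested genes, adjusted p = 0.857), and the 2-sided exact permutation p was 0.300. The low value of 59.1 came from the library with Y-linked RNA. Without the 4 such libraries the log2 difference was -0.51 (adjusted p = 0.640, limma). Leaving out 1 library at a time moved it from -1.54 without FAN1KO saline replicate 3 to -0.21 without FAN1KO saline replicate 1.

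**Figure D1:**
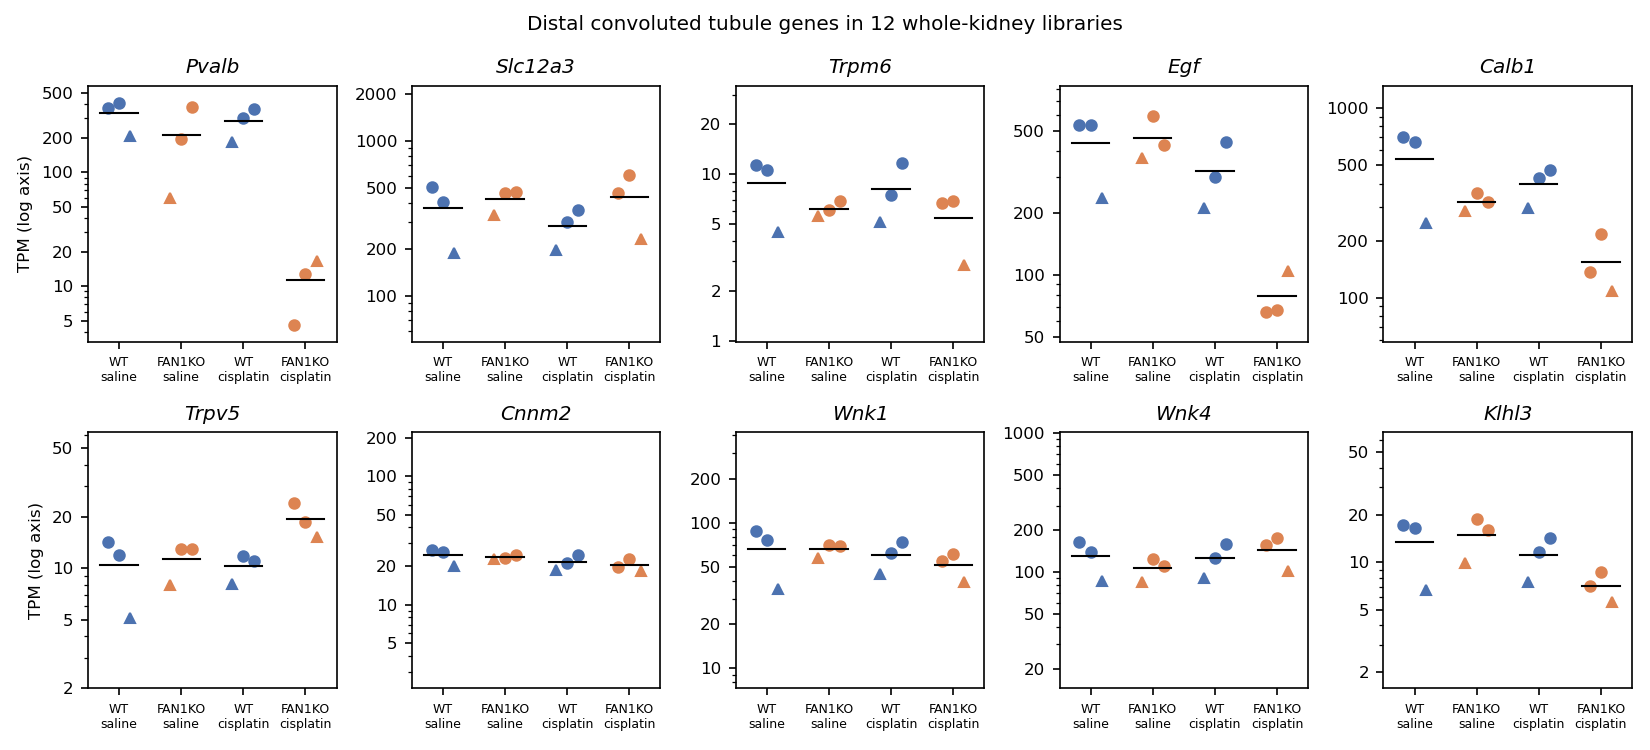
TPM of each of the 10 genes by library on a log axis, wild-type (WT) in blue and FAN1KO in orange, 3 mice per group; triangles are the libraries with Y-linked RNA and bars are group means. Pvalb in cisplatin-treated FAN1KO kidneys, at 4.55 to 16.6, lies far below its other groups, Egf and Calb1 are lower there too, and Slc12a3, at 234 to 609, is not.

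Egf encodes the precursor of epidermal growth factor, which is made in the distal convoluted tubule and the thick ascending limb and stimulates TRPM6. Its TPM was 533, 533 and 237 in saline-treated wild-type, 370, 590 and 426 in saline-treated FAN1KO, 211, 300 and 443 in cisplatin-treated wild-type, and 66.2, 67.8 and 104 in cisplatin-treated FAN1KO kidneys. The cisplatin-treated FAN1KO kidneys did not overlap any other group. Against wild-type under cisplatin, Egf fell from 318 ± 117 to 79.3 ± 21.2 (SD, n = 3 each), 4.01-fold, with a log2 difference of -1.96 (SE 0.36, limma adjusted p = 0.00454). Against saline-treated FAN1KO kidneys it was 5.82-fold lower, with a log2 difference of -2.53 (SE 0.36, limma adjusted p = 6.54e-04). The cisplatin effect on Egf also differed between genotypes, by -2.11 in log2 (SE 0.51, limma adjusted p = 0.0395), the only interaction called among the 9 tested members. That interaction lost its call in 9 of the 12 fits that left out 1 library, with adjusted p up to 0.105 (limma). It was kept without wild-type saline replicate 3, wild-type cisplatin replicate 1 or FAN1KO cisplatin replicate 3. With the replicate numbers as a block its adjusted p was 0.0698 (limma).

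Calb1 encodes calbindin, the calcium buffer of the later distal tubule. Its TPM was 703, 661 and 247 in saline-treated wild-type, 286, 358 and 318 in saline-treated FAN1KO, 298, 428 and 470 in cisplatin-treated wild-type, and 137, 217 and 109 in cisplatin-treated FAN1KO kidneys. The last group lay below all the others without overlap, and 247 in wild-type saline replicate 3 was the lowest value elsewhere. Under cisplatin Calb1 was 2.58-fold lower in FAN1KO kidneys, going from 399 ± 89.6 to 154 ± 56.1 (SD, n = 3 each), with a log2 difference of -1.40 (SE 0.38, limma adjusted p = 0.0249). In FAN1KO kidneys it fell 2.08-fold with cisplatin, a log2 difference of -1.10 (SE 0.38, limma adjusted p = 0.0403). Leaving out wild-type cisplatin replicate 2 or 3 or FAN1KO cisplatin replicate 1 or 3 ended the first call, with adjusted p up to 0.0892 (limma). The second call ended without any of FAN1KO saline replicates 1, 2 and 3, wild-type cisplatin replicate 2, or FAN1KO cisplatin replicate 1 or 3, with adjusted p up to 0.117 (limma).

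Slc12a3, which encodes NCC and defines the segment, had TPM of 509, 407 and 189 in saline-treated wild-type, 333, 465 and 468 in saline-treated FAN1KO, 198, 299 and 359 in cisplatin-treated wild-type, and 464, 609 and 234 in cisplatin-treated FAN1KO kidneys. All 4 groups overlapped. The means under cisplatin were 436 ± 189 in FAN1KO and 285 ± 81.2 in wild-type kidneys (SD, n = 3 each), and the log2 difference of 0.55 had a 95% interval of -0.37 to 1.46 (limma adjusted p = 0.361) and ran from 0.25 to 0.94 with 1 library left out. In FAN1KO kidneys cisplatin against saline gave -0.04, with an interval of -0.96 to 0.87 (limma adjusted p = 0.942). In whole kidney, fewer cells of a type and less RNA per cell cannot be told apart.

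Trpv5, the apical calcium channel, had TPM of 14.3, 12.0 and 5.15 in saline-treated wild-type, 7.99, 13.0 and 12.9 in saline-treated FAN1KO, 8.09, 11.7 and 11.0 in cisplatin-treated wild-type, and 23.9, 18.7 and 15.1 in cisplatin-treated FAN1KO kidneys. Here the cisplatin-treated FAN1KO kidneys were the highest and overlapped no other group. The log2 difference from wild-type under cisplatin was 0.84 (SE 0.33, limma adjusted p = 0.0878) and that from saline-treated FAN1KO kidneys was 0.73 (SE 0.33, limma adjusted p = 0.10), so neither passed the threshold of 0.05. Reads of Trpv5 and its close relative Trpv6 may have been shared between them, depending on how multiply mapped reads were counted.

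Klhl3, the adaptor of the cullin ligase, had TPM of 9.86, 19.0 and 16.1 in saline-treated FAN1KO and 7.03, 8.65 and 5.58 in cisplatin-treated FAN1KO kidneys, without overlap. Its wild-type values were 17.3, 16.5 and 6.67 under saline and 7.56, 11.7 and 14.3 under cisplatin, which overlapped both. The log2 difference with cisplatin in FAN1KO kidneys was -0.95 (SE 0.36, limma adjusted p = 0.0565), and against wild-type under cisplatin it was -0.57 (SE 0.36, limma adjusted p = 0.272). Trpm6, the magnesium channel itself, had 11.4, 10.7 and 4.49 in saline-treated wild-type, 5.63, 6.08 and 6.90 in saline-treated FAN1KO, 5.20, 7.51 and 11.8 in cisplatin-treated wild-type and 6.73, 6.95 and 2.84 in cisplatin-treated FAN1KO kidneys. All groups of Trpm6 overlapped, and its log2 difference between genotypes under cisplatin was -0.50 (95% interval -1.35 to 0.34, limma adjusted p = 0.359), running from -0.76 to -0.16 with 1 library left out.

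The remaining 3 members overlapped in every comparison. Cnnm2, the basolateral magnesium protein, ranged over all libraries from 18.3 to 26.8, Wnk1 from 34.8 to 87.2 and Wnk4 from 83.9 to 174. Between genotypes under cisplatin their log2 differences were -0.07, -0.21 and 0.20, with limma adjusted p of 0.757, 0.652 and 0.656, and the 95% interval for Cnnm2 was -0.37 to 0.24. The kidney-specific and long forms of Wnk1 share one gene number and could not be separated.

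Read over the 9 members other than Pvalb, FAN1KO against wild-type under cisplatin gave 2 members called lower and 0 higher by limma, with 3 at an unadjusted p under 0.05. Of the 14972 genes tested, 4.37% were called lower and 19.6% higher, together 23.9%. The median log2 difference of the 9 members was -0.21 and that of all genes 0.24. Groups did not overlap for 3 of the 9, 2 lower and 1 higher, against 8.60% lower and 35.7% higher of all genes.

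With cisplatin in FAN1KO kidneys limma gave 2 called lower and 0 higher, with 4 at an unadjusted p under 0.05, where 4.90% of all genes were called lower and 34.9% higher, together 39.8%, and the medians were -0.22 and 0.37. There, 4 of the 9 did not overlap, 3 lower and 1 higher, against 7.43% and 47.4% of all genes.

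In the other comparisons few or no members passed. FAN1KO against wild-type under saline called 0 of 9, with 0 at an unadjusted p under 0.05, and 0.768% of all genes called, and limma voom on recovered reads called 0 of 9 and 0.621% of all genes. With cisplatin in wild-type kidneys 0 of 9 were called, with 0 at an unadjusted p under 0.05 and 0.0601% of all genes called, and voom called 0 of 9 and 0.0668% of all genes. In both comparisons the groups overlapped for all 9 members, where 12.5% and 6.28% of all genes did not overlap. The interaction called 1 of 9, Egf, and 6.24% of all genes. The smallest exact permutation p that 3 against 3 mice allow is 0.1, which Egf, Calb1 and Trpv5 reached in both comparisons with cisplatin-treated FAN1KO kidneys, and Klhl3 in the one with saline-treated FAN1KO kidneys.

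The median of all genes rose in cisplatin-treated FAN1KO kidneys in TPM, so the members were also read after scaling libraries by median ratios, which brought the median of all genes to -0.01 in both comparisons. Under that scaling 7.71% of genes were lower and 9.28% higher between genotypes under cisplatin, and 13.7% and 15.6% with cisplatin in FAN1KO kidneys. Between genotypes Egf at -2.24 and Calb1 at -1.68 were again the 2 members called, and Slc12a3 was at 0.26 (limma adjusted p = 0.623). With cisplatin in FAN1KO kidneys 5 members were then called lower: Egf, Calb1, Klhl3, Wnk1 and Cnnm2. The sign of Wnk4 turned under this scaling, to -0.09 and -0.02.

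**Figure D2:**
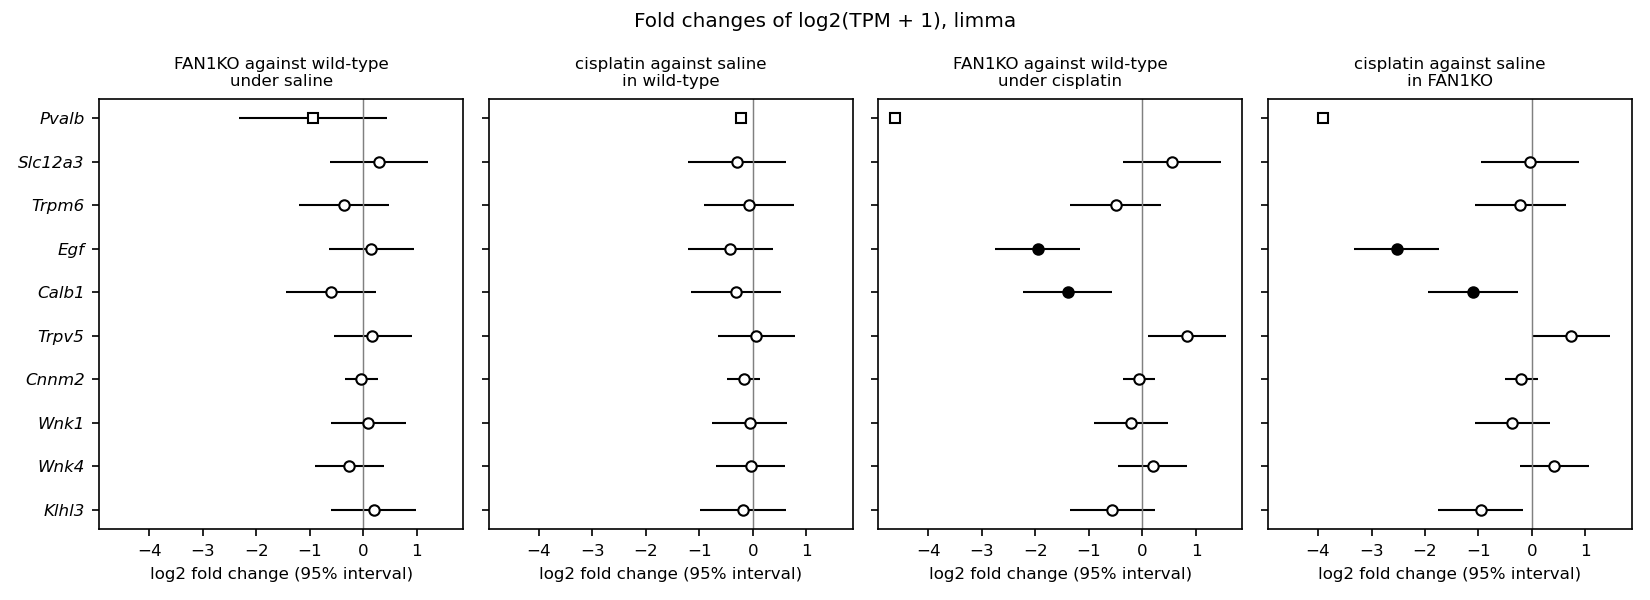
Log2 fold changes of log2(TPM + 1) for the 10 genes in 4 comparisons, with 95% intervals (limma) except for Pvalb where no test is given. Filled circles passed an adjusted p of 0.05, open circles did not, and squares are Pvalb, for which a test is given only under saline; Egf and Calb1 are filled in the 2 comparisons with cisplatin-treated FAN1KO kidneys and the other 2 panels hold no filled point.

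Members were next set against Slc12a3 of the same library, since the cotransporter defines the segment. The ratio of Pvalb to Slc12a3 TPM was 0.725, 1.01 and 1.11 in saline-treated wild-type kidneys and 0.944, 1.01 and 0.996 in cisplatin-treated wild-type kidneys. It was 0.177, 0.425 and 0.811 in saline-treated FAN1KO kidneys and 0.00980, 0.0212 and 0.0710 in cisplatin-treated FAN1KO kidneys. The ratio was near 1 in all 6 wild-type kidneys, spread over a wide range in saline-treated FAN1KO kidneys, where it overlapped wild-type (exact permutation p = 0.200), and was lowest in the 3 cisplatin-treated FAN1KO kidneys.

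Egf stood at 1.05, 1.31 and 1.25 times Slc12a3 in saline-treated wild-type, at 1.11, 1.27 and 0.909 in saline-treated FAN1KO, at 1.06, 1.01 and 1.23 in cisplatin-treated wild-type, and at 0.143, 0.111 and 0.443 in cisplatin-treated FAN1KO kidneys. The first 3 groups overlapped and the last did not. For Calb1 the ratios were 1.38, 1.62 and 1.30 in saline-treated wild-type and 1.50, 1.43 and 1.31 in cisplatin-treated wild-type kidneys, against 0.859, 0.771 and 0.679 in saline-treated FAN1KO and 0.296, 0.356 and 0.465 in cisplatin-treated FAN1KO kidneys. Calb1 relative to Slc12a3 was thus lower in FAN1KO than in wild-type kidneys under saline as well, without overlap, by 0.90 on the log2 scale (exact permutation p = 0.1, the smallest possible).

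Trpm6 relative to Slc12a3 was also lower in both FAN1KO groups, which overlapped each other, with 0.0225, 0.0262 and 0.0237 in saline-treated wild-type, 0.0169, 0.0131 and 0.0147 in saline-treated FAN1KO, 0.0262, 0.0252 and 0.0328 in cisplatin-treated wild-type and 0.0145, 0.0114 and 0.0121 in cisplatin-treated FAN1KO kidneys. Genotypes did not overlap under either treatment (exact permutation p = 0.10 each). Under saline 4 of the 8 members tested against Slc12a3 (Trpm6, Calb1, Wnk1 and Wnk4) had a lower ratio without overlap and 0 a higher one, where 13.2% of all genes were lower and 0.935% higher in the same sense. Under cisplatin 5 of 8 were lower (Trpm6, Egf, Calb1, Wnk1 and Klhl3), and 0 higher, against 6.75% and 4.99% of all genes. With cisplatin in FAN1KO kidneys Egf, Calb1 and Klhl3 were lower and Trpv5 and Wnk4 higher, against 1.06% and 27.9%. In wild-type kidneys only Trpv5 and Wnk1 lay apart, both higher, against 11.5%. Members followed Slc12a3 within groups (median r of 0.92), so their ratios can separate more readily and these shares are not a like comparison. The ratio also carries any shift of Slc12a3 itself. With 3 mice a group no such ratio can reach an exact p under 0.1.

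**Figure D3:**
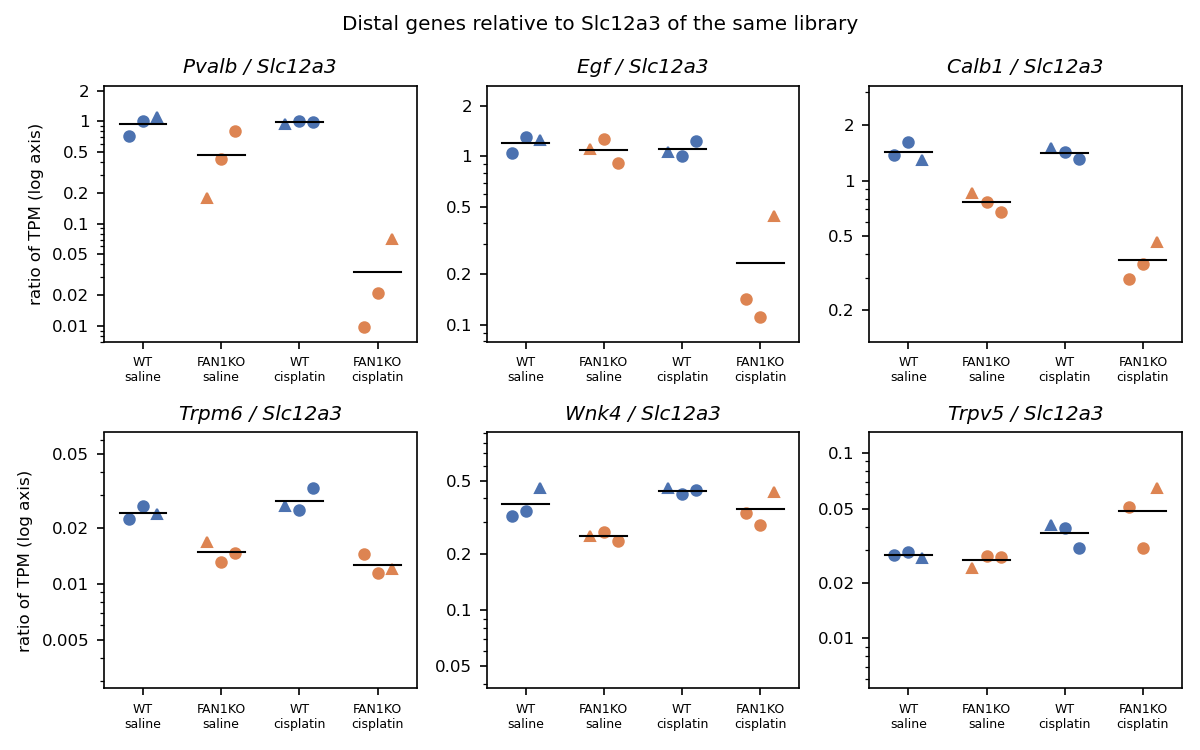
Ratio of the TPM of 6 genes to that of Slc12a3 in the same library, on log axes; wild-type (WT) in blue, FAN1KO in orange, triangles for libraries with Y-linked RNA, bars for group means. Pvalb and Egf sit near 1 in wild-type kidneys and drop in cisplatin-treated FAN1KO kidneys, to means of 0.0340 and 0.232, while Calb1 and Trpm6 are lower in both FAN1KO groups. In saline-treated FAN1KO kidneys the Pvalb ratio spreads from 0.177 to 0.811 and overlaps wild-type.

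The libraries with Y-linked RNA (replicate 3 of wild-type saline, replicate 1 of FAN1KO saline, replicate 1 of wild-type cisplatin and replicate 3 of FAN1KO cisplatin) had the lowest value of their group for 8 of the 10 members in 4 of 4 groups, as did 41.5% of all genes. Slc12a3 in these libraries was 0.413 to 0.715 times the mean of the other 2 of its group. Pvalb and Egf were lowest there in 3 groups, but in cisplatin-treated FAN1KO kidneys they were highest in that library, at 1.90 and 1.55 times the other 2. Fitted with the level of Y-linked RNA as a covariate, limma called 5 of 9 members between genotypes under cisplatin: Egf, Calb1 and Klhl3 lower and Slc12a3 (0.57, adjusted p = 0.0256) and Trpv5 (0.86, adjusted p = 0.00254) higher. In that fit 8.60% of all genes were called lower and 40.3% higher.

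Without the 4 libraries the same 5 members were called, with Slc12a3 at 0.70 (limma adjusted p = 0.0179), Trpv5 at 0.84 (adjusted p = 0.00508) and Klhl3 at -0.66 (adjusted p = 0.0134), where 7.76% of genes were called lower and 28.9% higher. Pvalb was then 37.8-fold lower, 8.73 against 330. Within the single pair of libraries with Y-linked RNA under cisplatin it was 11.3-fold lower, 16.6 against 187. These values of Pvalb are from the libraries that chose it and are a description. Egf and Calb1 were lower between genotypes under cisplatin on both sides of this split, with 1 mouse a group on one side, while Slc12a3 was 1.63-fold higher on one side and 1.18-fold on the other.

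Another 40 genes of the segment and of NCC control were listed, 25 for transport and magnesium handling and 16 as regulators of the cotransporter with 1 gene in both. Of these, 38 passed the filter on low values, Kcna1 and Wnk3 being too low. Between genotypes under cisplatin limma called 2 of the 38 lower and 4 higher, against 23.9% called of all genes, and their median of 0.25 was near the 0.24 of all genes. Kl, encoding klotho, fell from 219 to 86.4, a log2 difference of -1.35 (SE 0.19, adjusted p = 0.00133), and Pcbd1, a transcriptional cofactor whose loss causes magnesium wasting, from 519 to 329, by -0.66 (SE 0.10, adjusted p = 0.00190). Both also differed in the interaction, at -1.37 (limma adjusted p = 0.0201) and -0.66 (limma adjusted p = 0.0267).

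The 4 called higher were Trpv6, a calcium channel related to Trpv5, from 2.19 to 6.15 (log2 fold change 1.13, SE 0.27, limma adjusted p = 0.0154), the EGF receptor gene Egfr, from 12.7 to 21.3 (0.71, SE 0.13, limma adjusted p = 0.00482), and the phosphatase genes Ppp1ca (0.52) and Ppp3ca (0.47), whose products act on NCC or its regulators. Egfr was thus higher in the group in which Egf was lower. With cisplatin in FAN1KO kidneys the same 6 were called in the same direction, along with Fxyd2 lower (-0.45) and the magnesium transporter gene Slc41a1 higher (0.82). That was 3 lower and 5 higher of the 38, where 4.90% of all genes were called lower and 34.9% higher. The median of the 38 was 0.14, against 0.37 for all genes. Kcnj10 and Kcnj16, which encode potassium channel subunits, and Stk39 and Oxsr1, which encode the kinases that phosphorylate NCC, did not pass between genotypes under cisplatin. Kl, Pcbd1, Egfr, Ppp1ca and Ppp3ca are also expressed outside the segment.

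**Figure D4:**
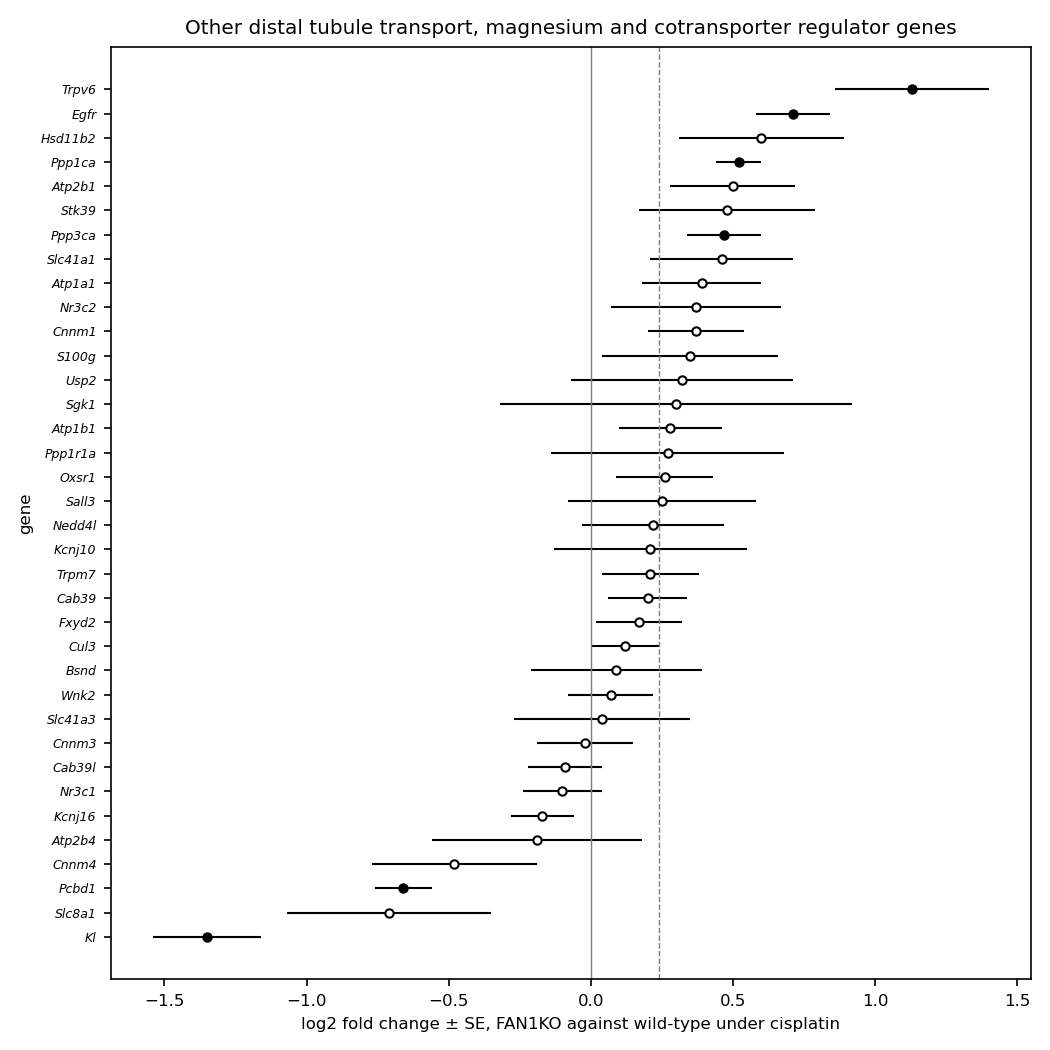
Log2 fold change with SE (limma) of 36 of the 38 tested genes of the other lists between genotypes under cisplatin (FAN1KO minus wild-type); filled points passed an adjusted p of 0.05 and the dashed line is the median of all tested genes, 0.24. Kl and Pcbd1 are the 2 filled points below 0 and Trpv6, Egfr, Ppp1ca and Ppp3ca the 4 above.

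Across the 12 libraries the genes most like Pvalb by Pearson's r of log2(TPM + 1), of 10615 genes with a mean TPM of at least 5, were Aldh4a1 (0.98), Hbb-bs (0.97), Hba-a2 (0.97), F13b (0.97) and Hbb-b1 (0.97). Of these, 3 encode globins. Egf stood at rank 112 with r of 0.90 and Calb1 at 252 with 0.84, while Slc12a3 had r of -0.14. The genes most like Slc12a3 were Atp1b1 (0.95), Cwh43 (0.94), Scn4b (0.92), Tmem52b (0.92) and Myo19 (0.92). These are descriptions over 12 libraries that share the 4 groups and the split by Y-linked RNA. The r values with Pvalb rest in part on the libraries whose values chose it, so genes low in the same libraries rank high. After group means were removed, the 45 pairs of members had a median r of 0.87 (range 0.22 to 0.97), and the lowest, 0.22, was between Pvalb and Trpm6. All pairs with Pvalb lay at 0.22 to 0.59, and those of Egf with the remaining members at 0.48 to 0.77. Removing group means does not remove the split by Y-linked RNA within each group.

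Markers of other cell types moved in the same libraries. Parvalbumin is also abundant in fast skeletal muscle, and the 10 muscle markers summed to 3.62 to 4.99 TPM in saline-treated wild-type, 2.98 to 6.41 in saline-treated FAN1KO, 4.65 to 6.72 in cisplatin-treated wild-type and 6.17 to 11.5 in cisplatin-treated FAN1KO kidneys. The myosin genes Myh4 and Myh2 were under 0.1 in every library. Mb, at 0.993, 0.890 and 0.541, and Tnni2, at 1.43, 1.34 and 0.676, were higher in cisplatin-treated FAN1KO kidneys than in any other library. Elsewhere they reached at most 0.0547 and 0.502. Ckm, Myh1, Tnnt3, Mylpf and Actn3 overlapped other groups there, as did the sums. The part of muscle RNA in the values of Pvalb was not tested. Of the 10, 2 passed the filter, and 1 of them, the skeletal actin gene Acta1, was called higher between genotypes under cisplatin (0.96, limma adjusted p = 0.0118) and with cisplatin in FAN1KO kidneys (1.26, limma adjusted p = 0.00182). Erythroid genes, 5 of which were tested, had 4 called lower between genotypes under cisplatin and summed to 2329 to 6583 in wild-type and 20.5 to 84.9 in FAN1KO kidneys.

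Of the 10 proximal tubule markers 7 were called lower between genotypes under cisplatin, with sums of 4724 to 6426 in wild-type and 1790 to 3481 in FAN1KO kidneys, and 6 of 6 tubule injury markers were called higher, from 314 to 636 up to 2274 to 4075. Principal cell markers had 4 of 7 called higher and 0 lower, with sums of 413 to 816 and 1213 to 1821. Thick ascending limb markers, of the segment that also makes Egf, had 1 of 8 called lower and 1 higher, with sums of 1430 to 2865 and 1789 to 2116. Intercalated cell (0 of 7) and podocyte markers (0 of 5) had none called, and leukocyte markers had 1 of 7 called higher. Of all genes, 4.37% were called lower and 19.6% higher in this comparison, which also holds for the muscle and erythroid counts above. The part of these differences in the values of the distal genes was not tested.

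**Figure D5:**
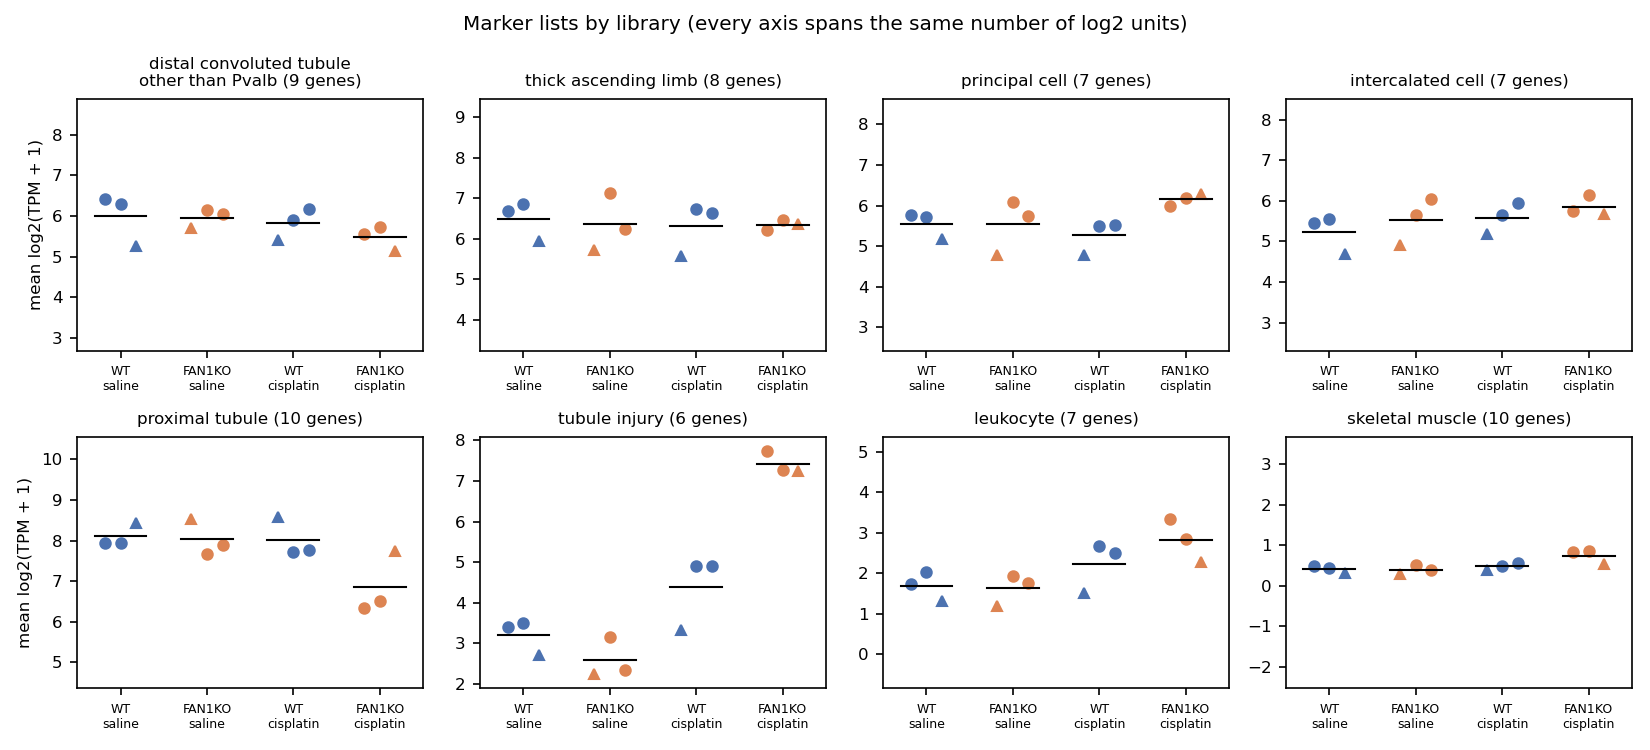
Mean log2(TPM + 1) of marker lists by library, wild-type (WT) in blue and FAN1KO in orange, triangles for libraries with Y-linked RNA and bars for group means; every axis spans the same number of log2 units. In cisplatin-treated FAN1KO kidneys the tubule injury list is highest. The proximal tubule list has its lowest group mean there, at 6.33, 6.52 and 7.75, but the third kidney overlaps other groups. The muscle list is at 0.54 to 0.86 against 0.29 to 0.56 in the other groups. By group mean the 9 distal genes other than Pvalb shift less than the injury and proximal lists. In replicate 3 they lie further from the saline-treated wild-type mean than the proximal list, at -0.85 against -0.35.

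Some of the 10 genes overlap others on the genome, and it was not stated whether reads were counted by strand. Trpm6 overlaps Gm23238 and Gm41814, Egf overlaps 6330410L21Rik, Trpv5 overlaps Gm34642, Wnk1 overlaps Mir706, and Klhl3 overlaps Gm33389, Gm52040 and Mir874. Pvalb, Slc12a3, Calb1, Cnnm2 and Wnk4 overlap no annotated gene.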

How the data were processed

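RNA of whole flash-frozen kidneys from 12 mice was sequenced in paired reads of 150 bases. The deposited values are TPM per gene, made by the authors and scaled to 1000000 per library, and listed by NCBI Gene number. The submitters' processing notes name build mm10 and limma, with no version. The aligner and counter are not given in the sources used here. Gene names came from RefSeq (GRCm38.p6), in which 1904 numbers had no name. Groups came from the sample labels, 3 mice each, and the labels do not say how cages or litters were shared.

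Genes that reached a TPM of 1 in 3 or more libraries were tested with limma 3.58.1 (R 4.3.3) on log2(TPM + 1), with 4 group means, a mean-variance trend, 4 contrasts and the interaction, 2-sided, and Benjamini-Hochberg adjustment over all 14972 genes at 0.05. Fold changes on this scale understate changes of low genes. Single members also had an exact permutation test, 2-sided. Pearson correlations over libraries are descriptions. All 10 members were named; of the other lists, the called genes with up to 4 largest falls and 4 largest rises; for likeness, the 5 highest correlations. The members and all lists were chosen with earlier results of these data known. A test on simulated data recovered 194 of 200 genes changed 2-fold between genotypes under cisplatin, of 14574 tested, with 17 unchanged genes called. The simulation gave every gene the same small spread between mice, had no split by Y-linked RNA and changed only genes with a mean TPM of at least 5. That share therefore does not hold for members with a wider spread, such as Slc12a3. Klhl3, at -0.95 with cisplatin in FAN1KO kidneys, was not called. Whole reads were recovered from the TPM steps: in that test all reads of 22206 of 22225 genes came back, and of 500 genes moved at random 0 remained whole. Alternatives were another pseudocount (0.1), no filter, only the compared libraries, median-ratio scaling, a Y-linked covariate, a replicate block, no trend and each library left out. Dropping the 4 libraries with Y-linked RNA and limma voom on recovered reads were chosen after seeing the data. Of the 38 tested genes of the other lists, 2 are counted but not reported here by name.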

Additional observations from a re-analysis of the deposited data

Results flagged for a closer look

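The cisplatin effect on Egf differed between genotypes by the test of the difference itself. Cisplatin minus saline in FAN1KO kidneys, less the same in wild-type kidneys, was -2.11 on the log2 scale (SE 0.51, limma adjusted p = 0.0395). The call ended in 9 of the 12 fits that left out 1 library (adjusted p up to 0.105), with the replicate block (adjusted p = 0.0698) and with no filter on low values (adjusted p = 0.0514), all by limma. Egf TPM went from 370 to 590 under saline to 66.2 to 104 under cisplatin in FAN1KO kidneys, and from 237 to 533 to 211 to 443 in wild-type kidneys. All 3 FAN1KO cisplatin kidneys lay below the 3 FAN1KO saline kidneys. Proximal tubule and tubule injury markers differed in the same libraries, as described above, and their part in the difference was not tested.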

How the results depend on the processing

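Of 1040 fold changes of the 10 members under 21 alternative settings, 943 kept their direction and side of the threshold (or, for Pvalb where no test is given, moved by less than the spread between mice), 22 lost it, 24 gained it and 51 changed sign, all of them uncalled. Pvalb is not counted among the 51. Its untested log2 difference with cisplatin in wild-type kidneys, -0.22, still reached 0.05 with 1 library left out. Egf was called lower between genotypes under cisplatin, and with cisplatin in FAN1KO kidneys, in every setting.

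Between genotypes under cisplatin, 5 of 9 members and 16 of the other 38 genes were called with the Y-linked covariate, and 5 and 12 without the 4 libraries with Y-linked RNA. Of all genes, 48.9% and 36.7% were called in the same fits. With cisplatin in FAN1KO kidneys 1 member was called with no filter on low values. Median-ratio scaling, the Y-linked covariate and the fit without the 4 libraries called 5 members each. These 3 fits called 14, 18 and 16 other genes, and 29.3%, 61.1% and 52.8% of all genes. For the interaction, 0 members were called with no filter (Egf limma adjusted p = 0.0514), 2 with the Y-linked covariate and 2 without the 4 libraries, with 10 and 5 other genes. Of all genes, 31.6% were called with the covariate and 16.3% without the 4 libraries. With the replicate block the interaction called 0 members (Egf -2.11, adjusted p = 0.0698) and 1 other gene. The block changed no other count by over 1.5 times. For the fits with no filter and with the block, the share of all genes called is not given here. Deviations of same-numbered mice had a mean r of -0.21, -0.18, -0.24 and -0.14 in the 4 comparisons. In each, numbers 1 and 3 set a library with Y-linked RNA against one without, so this check cannot decide on pairing. The numbers were not taken as pairs.

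Leaving out each library in turn gave 1 to 3 members and 4 to 6 other genes between genotypes under cisplatin, 1 to 4 and 5 to 10 with cisplatin in FAN1KO kidneys (4 members without wild-type saline replicate 3, 5 other genes without FAN1KO cisplatin replicate 1), and 0 to 1 and 1 to 3 for the interaction. With all libraries, 23.9%, 39.8% and 6.24% of all genes were called in these comparisons. The shares in the fits with 1 library left out are not given here, so these counts do not set members apart from all genes. The members lost were Egf in the interaction and Calb1 in the other comparisons, in the libraries named above; without the filter Calb1 with cisplatin in FAN1KO kidneys had an adjusted p of 0.0589 (limma). Left out 1 at a time, the interaction of Egf ranged from -2.37 to -1.72, with limma adjusted p of 0.033 to 0.105. Uncalled log2 values that changed sign ranged as follows in these fits. Between genotypes under saline, Slc12a3 ranged from -0.13 to 0.58, Egf from -0.23 to 0.35, Trpv5 from -0.22 to 0.43, Cnnm2 from -0.16 to 0.04, Wnk1 from -0.31 to 0.34 and Klhl3 from -0.21 to 0.45. With cisplatin in wild-type kidneys, Trpm6 ranged from -0.46 to 0.17, Trpv5 from -0.33 to 0.32, Wnk1 from -0.46 to 0.19, Wnk4 from -0.31 to 0.17 and Klhl3 from -0.59 to 0.05, and Pvalb, which has no test there, from -0.51 to 0.05. Between genotypes under cisplatin, Cnnm2 ranged from -0.16 to 0.03 and Wnk4 from -0.02 to 0.43. With cisplatin in FAN1KO kidneys, Slc12a3 ranged from -0.34 to 0.35 and Trpm6 from -0.40 to 0.13. For the interaction, Slc12a3 ranged from -0.04 to 0.67, Trpm6 from -0.39 to 0.24, Cnnm2 from -0.12 to 0.09 and Wnk1 from -0.55 to 0.10.

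Without the 4 libraries, signs changed between genotypes under saline for Egf (-0.09), Trpv5 (-0.01) and Wnk1 (-0.22), with cisplatin in wild-type kidneys for Trpv5 (-0.19), with cisplatin in FAN1KO kidneys for Slc12a3 (0.19) and Trpm6 (0.07), and in the interaction for Trpm6 (0.27) and Cnnm2 (0.05). Median-ratio scaling changed the sign of Cnnm2 between genotypes under saline (0.01), of Trpv5 with cisplatin in wild-type kidneys (-0.02), of Wnk4 between genotypes under cisplatin (-0.09) and with cisplatin in FAN1KO kidneys (-0.02), and of Slc12a3 in the interaction (-0.09). The cause of these changes was not tested. With 3 mice a group and the spread shown, differences of members such as Trpm6 and Slc12a3 have wide intervals, and TPM is a share, so a rise of other transcripts lowers it.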
